A study of Mus musculus with 60 samples.

Results

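The libraries described here are the 16 cortex-like brain libraries that stood at both ends of a ranking by Drd2, the gene of the dopamine D2 receptor. Of 60 RNA-Seq libraries, 30 had a deposited FPKM (fragments scaled to transcript length and to library size) of Slc17a7, the vesicular glutamate transporter of cortical excitatory neurons, above 100, and these were taken as cortex-like. Their FPKM were divided by a median-of-ratios factor for each library, and the 30 were ranked by the scaled Drd2. The 8 highest (Drd2-high) and the 8 lowest (Drd2-low) were selected on this value and compared over all genes except Drd2. The 14 libraries between them belong to neither group. All levels below are scaled FPKM, and all differences are log2(scaled FPKM + 0.5), Drd2-high minus Drd2-low.

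RNA came from tissue labelled cortex or striatum of c57BL-6N mice aged 3 months and was sequenced as rRNA-depleted, strand-specific libraries. The Δ12 line, with genotypes +/+, Δ12/+ and Δ12/Δ12, carries a deletion within exon 12 of the endogenous Htt gene. The other line, with genotypes +/+ and KO/+, carries a null Htt allele. Each genotype had 3 males and 3 females per tissue, and no treatment is named. Both alleles are constitutive, so every cell of a carrier holds them, and KO/+ mice keep 1 intact copy.

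All 30 cortex-like libraries were labelled as the Δ12 line, 15 as cortex and 15 as striatum. The other 30 (striatum-like) were the 24 labelled as the KO line and the 6 labelled female Δ12/Δ12. Of the Drd2-high libraries, 3 were labelled cortex and 5 striatum, 4 +/+ and 4 Δ12/+, 4 female and 4 male. Of the Drd2-low libraries, 3 were labelled cortex and 5 striatum, 4 +/+, 3 Δ12/+ and 1 Δ12/Δ12, 4 female and 4 male. Transcripts contradicted the labels in part of these libraries. Besides the tissue labels, Xist and the Y-linked Ddx3y went against the labelled sex in 3 Drd2-high and 4 Drd2-low libraries. They also did so in 10 of the 14 libraries of neither group and in 13 of the 30 striatum-like ones. Libraries are therefore named by their labels only as names. Estimated depth was 12700000 to 19400000 fragments in Drd2-high (median 14750000) and 13400000 to 19100000 in Drd2-low (median 14650000). No pair of libraries held identical values. The labels number the mice, and nothing in the values tied the cortex and striatum libraries of 1 number to each other. Because labels were contradicted in part, it is not known which libraries share a mouse. The p-values treat the libraries as separate and measure the spread between them.

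The striatum is built mostly of GABAergic projection neurons. Those of the indirect pathway carry the dopamine D2 receptor, an adenosine receptor (Adora2a) and enkephalin, and those of the direct pathway carry the D1 receptor, substance P and dynorphin. Both kinds share a signalling machinery around cAMP, with DARPP-32 (Ppp1r1b), adenylyl cyclase 5 (Adcy5), the olfactory G protein subunits and phosphodiesterases. Cortical excitatory neurons lie next to the striatum across the white matter and express less of this set, so these genes are widely used to see striatal tissue in a cortical dissection.

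Drd2 (ENSMUSG00000032259) lies on chromosome 9 of GRCm38 from 49340662 to 49407214, Adora2a (ENSMUSG00000020178) on chromosome 10 from 75316943 to 75334788 and Ppp1r1b (ENSMUSG00000061718) on chromosome 11 from 98348404 to 98357796. RefSeq promoters (GRCm38.p6, 250 bases before to 50 after the start of transcription) were found for 30 of 43 genes, namely Drd2 and the members of the 4 lists of striatal neuron genes. Adora2a, Ppp1r1b and Penk are named only. The promoters of 3 genes are shown because Drd2 made the ranking, Lrrc10b was the striatal gene with an entry that differed most, and Dach1 was, beside Adora2a, the other gene whose levels were higher in every Drd2-high than in every Drd2-low library. They lie at chr9:49340153-49340452 (Drd2, + strand), chr19:10457398-10457697 (Lrrc10b, - strand) and chr14:98169716-98170015 (Dach1, - strand). Capitals mark GC boxes (GGGCGG or its reverse complement CCGCCC) and half-sites of the cAMP response element (TGACG or CGTCA), searched on both strands.
Drd2: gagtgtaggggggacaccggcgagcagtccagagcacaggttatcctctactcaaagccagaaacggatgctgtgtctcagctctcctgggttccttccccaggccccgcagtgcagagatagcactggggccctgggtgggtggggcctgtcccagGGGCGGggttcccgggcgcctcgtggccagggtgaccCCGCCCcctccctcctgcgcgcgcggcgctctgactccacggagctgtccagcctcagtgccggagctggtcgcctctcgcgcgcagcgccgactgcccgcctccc
Lrrc10b: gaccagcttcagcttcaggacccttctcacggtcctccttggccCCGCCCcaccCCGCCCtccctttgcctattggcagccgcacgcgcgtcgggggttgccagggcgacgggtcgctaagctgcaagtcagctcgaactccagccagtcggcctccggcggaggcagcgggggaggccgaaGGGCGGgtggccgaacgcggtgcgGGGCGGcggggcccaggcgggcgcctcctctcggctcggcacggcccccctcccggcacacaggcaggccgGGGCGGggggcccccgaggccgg
Dach1: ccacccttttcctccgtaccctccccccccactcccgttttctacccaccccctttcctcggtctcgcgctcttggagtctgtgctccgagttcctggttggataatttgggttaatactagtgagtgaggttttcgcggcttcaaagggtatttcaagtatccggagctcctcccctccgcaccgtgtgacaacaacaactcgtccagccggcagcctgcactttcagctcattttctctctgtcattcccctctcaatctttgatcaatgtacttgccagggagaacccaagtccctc
The Drd2 promoter holds 2 GC boxes in 70.3% G and C, the Lrrc10b promoter 5 in 76.3%, and these letters do not occur in the Dach1 window of 54% G and C. The CRE half-site occurs in none of these 3 windows. Among all 32851 promoters, 35.7% hold a GC box and 20.8% a CRE half-site. Among the 43 entries of the striatal genes, some of them alternative starts of 1 gene, the shares were 53.5% and 18.6%.

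The ranking was led by 1 library. Scaled Drd2 in Drd2-high was 18.6 in striatum Δ12/+ male 3, 4.40 in striatum Δ12/+ male 2, 2.98 in cortex +/+ male 3, 2.11 in striatum +/+ female 1, 1.97 in striatum +/+ female 2, 1.76 in cortex +/+ female 3, 1.71 in striatum Δ12/+ female 2 and 1.33 in cortex Δ12/+ male 2. In Drd2-low it was 0.54 in striatum +/+ male 1, 0.49 in cortex Δ12/Δ12 male 1, 0.48 in striatum +/+ male 3, 0.43 in striatum +/+ female 3, 0.43 in striatum Δ12/+ male 1, 0.40 in cortex Δ12/+ female 3 and 0.21 in striatum Δ12/+ female 3, and it was listed at 0 in cortex +/+ female 1. The highest library thus stood more than 4 times above the next, while the remaining values fell in a gradual series.

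The edges of both groups were not marked by a gap. The last Drd2-high library had 1.33 and the next in rank, striatum +/+ male 2 of neither group, 1.305. The deposited intervals of their FPKM were 0.91 to 1.96 and 0.94 to 1.92. The first Drd2-low library had 0.54 and the one just above it, striatum Δ12/+ female 1, 0.61. When all 60 libraries were scaled together, the striatum-like libraries had Drd2 from 34.8 to 71.3, with a median of 50.2, so all 16 libraries were below them.

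The library at the bottom also stood apart in coverage. Cortex +/+ female 1 had 14925 entries above 0, against 16414 to 21783 in the other 29 cortex-like libraries, and a 0 there is a weaker statement than elsewhere. Values without the top library, or without the libraries with the 2 highest Drd2, follow the comparison of all 16. Slc17a7, which defined the class, was 121 in the top library and between 169 and 213 in the Drd2-low libraries.

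**Figure D1:**
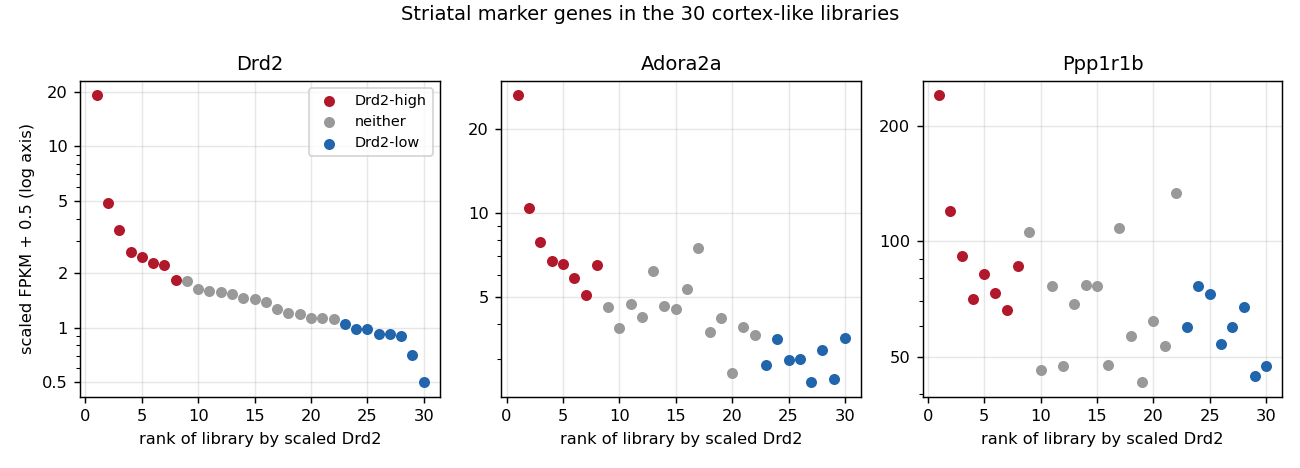
Scaled FPKM + 0.5 (log axis) of Drd2, Adora2a and Ppp1r1b in the 30 cortex-like libraries, placed by their rank in scaled Drd2, with 1 point per library. Adora2a mostly falls along the ranking and its Drd2-high and Drd2-low points do not overlap, but at rank 17 it is 6.98, above the Drd2-high median of 6.15. Ppp1r1b at rank 22 is 133, above every Drd2-high library except the top.

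None of the 3 label comparisons that were tested, tissue, sex and Δ12/+ against +/+, gave a difference in Drd2 beyond the spread between libraries. Transcripts contradicted the tissue and sex labels in part of these libraries. The tests therefore compare labels and cannot decide whether Drd2 differs by the actual tissue, sex or genotype. Drd2 ranged from 0.21 to 18.6 (median 1.08) in the 15 libraries labelled striatum and from 0 to 2.98 (median 0.89) in the 15 labelled cortex. The difference of the mean log2 levels, striatum minus cortex, was 0.39 (permutation test, two-sided, p = 0.292, adjusted over 3 labels 0.439). It was 0.40 for male minus female (n = 18 and 12, permutation p = 0.289, adjusted 0.439) and 0.22 for Δ12/+ minus +/+ (n = 12 and 12, permutation p = 0.658). Without the top library, which is labelled striatum, male and Δ12/+, these differences were 0.15, 0.20 and -0.10. The 6 cortex-like Δ12/Δ12 libraries entered no genotype test, and of these 0 were Drd2-high, 1 Drd2-low and 5 in neither group.

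Adora2a, the adenosine receptor gene that indirect-pathway neurons express together with Drd2, separated the groups completely. Its lowest, median and highest levels were 4.59, 6.15 and 25.8 in Drd2-high and 1.98, 2.50 and 3.09 in Drd2-low. The second highest value was 9.90, in the library that also ranked second for Drd2. The difference was 1.43 (SE 0.26), and its adjusted p in limma was 0.355 over all genes.

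That adjusted p depended on the libraries and on the fit. Without striatum Δ12/+ male 3 the difference was smaller, 1.19, and Adora2a was called (limma, adjusted p = 0.005). Without the libraries with the 2 highest Drd2 it was 1.09 (SE 0.11, limma adjusted p = 0.00288). With all 16 libraries it was called in limma with array weights (adjusted p = 0.033, as was Lrrc10b) and with the estimated depth as a covariate (adjusted p = 0.041). Over all alternatives to this comparison the values of Adora2a were positive, from 0.64 to 1.75, with adjusted p up to 0.983. The 0.64 is a slope per log2 Drd2 (29 libraries, without the top) and is not on the scale of a group difference. In the 14 libraries of neither group the slope was 0.56 (SE 0.40, unadjusted p = 0.183 in limma). The groups were made from Drd2 in the same libraries, so each p describes which genes vary with Drd2 and compares no treatment.

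Across all genes, no difference in levels was called. Of 15450 genes tested in limma, 0 (0%) had an adjusted p under 0.05, and 985 had an unadjusted p under 0.05. Of these, 566 (3.66%) were higher and 419 (2.71%) lower in Drd2-high. Groups that did not overlap were found for 2 genes that were higher (0.0129%), Adora2a and Dach1, and for 3 that were lower (0.0194%), Ankrd13d, Slc37a4 and Pex14. The median difference of all genes was 0.01, and 52.6% were higher.

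The other genes of indirect-pathway neurons had smaller differences than Adora2a, in the same direction. Of 6 listed genes 4 were tested, and all 4 had an unadjusted p under 0.05, with a median of 0.70 beside 0.01 for all genes. Of these, Sp9 passed the filter on low levels only through the Drd2-high libraries (means 0.72 and 0.40), so it had to be higher, and it was under the filter without the top library. Penk, the precursor of enkephalin, was 37.4, 57.6 and 175 (lowest, median, highest) in Drd2-high and 21.7, 38.3 and 52.1 in Drd2-low, a difference of 0.71 (SE 0.27), or 0.49 without the top library. The Penk levels overlapped, and the highest Drd2-low value was in the bottom library. Gpr6, an orphan receptor of these neurons, was 4.43, 5.43 and 10.5 against 2.37, 3.42 and 4.88, a difference of 0.68 (SE 0.16).

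Genes of the direct pathway were less even, and none was called. Of 9 tested, 8 were higher in Drd2-high, with a median difference of 0.44, and 3 had an unadjusted p under 0.05. The median was 0.29 without the top library, with 7 of 9 higher, and the difference of Drd1 was then 0.51. Drd1, the D1 receptor, was 7.14, 11.9 and 22.0 in Drd2-high and 5.34, 7.72 and 8.95 in Drd2-low, a difference of 0.64 (SE 0.18). Slc35d3, a transporter that carries D1 receptors towards the surface, differed by 0.91 (SE 0.26), but passed the filter only through the Drd2-high libraries. Tac1, the precursor of substance P and the most abundant member, was 23.2, 31.3 and 45.2 against 21.4, 25.9 and 41.2, which differed by less than their spread (0.21, SE 0.15).

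The genes shared by both kinds of projection neuron had the highest list median. Of 17 listed genes 16 were tested, all 16 were higher in Drd2-high, and 13 had an unadjusted p under 0.05, with a median difference of 0.80. Ppp1r1b, which encodes the protein phosphatase inhibitor DARPP-32, was 65.5, 83.5 and 240 in Drd2-high and 44.0, 59.2 and 76.1 in Drd2-low. Its difference was 0.67 (SE 0.23), and the groups overlapped. Gpr149 passed the filter only through the Drd2-high libraries, and the counts are a description. The median was 0.54 without the top library.

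In the same list, Gng7, the G protein gamma subunit paired with the olfactory alpha subunit, was 10.8, 15.7 and 75.9 in Drd2-high and 5.23, 9.06 and 13.3 in Drd2-low, a difference of 1.06 (SE 0.32). Rgs9, which speeds the shut-off of G protein signals, was 8.18, 12.1 and 41.2 against 5.56, 6.71 and 9.20, a difference of 0.93 (SE 0.25). Neither was called, and without the top library the differences were 0.78 and 0.70. Of related genes outside this list, Gnas was at -0.08 (SE 0.09) and Rgs4 at -0.01 (SE 0.10).

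The list also holds 3 enzymes of cAMP turnover, of which none was called. Adcy5 was 5.92, 8.46 and 64.0 in Drd2-high and 3.86, 5.57 and 6.38 in Drd2-low, a difference of 1.08 (SE 0.38). Pde10a, the phosphodiesterase that is abundant in striatal neurons, was 7.37, 11.6 and 63.8 against 4.94, 6.96 and 7.55, a difference of 1.06 (SE 0.32). Pde1b, a calcium-dependent phosphodiesterase, differed by 0.59 (SE 0.18). In all 3 the top library held the highest level, and without it the differences were 0.74, 0.76 and 0.43. Of related enzymes outside this list, Pde1a was at -0.11 (SE 0.09), Adcy1 at 0.11 (SE 0.11) and Pde2a at 0.24 (SE 0.16). Pde4b was at 0.29 (SE 0.13). Pde7b was at 0.65 (SE 0.29), above Pde1b, and at 0.43 without the top library.

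Syndig1l and Lrrc10b had the largest differences of this list. Syndig1l, a membrane protein of striatal neurons, was 1.94, 4.04 and 28.5 in Drd2-high and 0.54, 1.73 and 2.42 in Drd2-low, a difference of 1.44 (SE 0.39). Lrrc10b, a leucine-rich repeat gene, was 7.36, 14.1 and 31.2 against 2.64, 4.90 and 9.05, a difference of 1.35 (SE 0.26, limma adjusted p = 0.355). The Lrrc10b levels of the groups overlapped only slightly, since the highest Drd2-low value again came from the bottom library. The differences were 1.11 and 1.18 without the top library.

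Striatal transcription factors and cholinergic genes had smaller medians in the same direction. Of 12 factors tested, 11 were higher and 6 had an unadjusted p under 0.05, with a median of 0.48, Sp9 among them. Foxp1 was 35.8, 52.8 and 65.0 in Drd2-high and 24.3, 39.7 and 50.8 in Drd2-low, a difference of 0.39 (SE 0.15), and Foxp2 differed by 0.67 (SE 0.23). Meis2, the most abundant factor, is also made by cortical cells and differed by 0.21 (SE 0.19). Of 6 cholinergic interneuron genes 4 were tested, with a median of 0.54 and 2 at an unadjusted p under 0.05. Chat, which makes acetylcholine, passed the filter only through the Drd2-high libraries (means 0.82 and 0.30). Without the top library 3 were tested, with a median of 0.30 and 0 at an unadjusted p under 0.05.

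The dopamine and cAMP signalling list overlaps with the striatal lists. Of 25 genes tested, 19 were higher and 12 had an unadjusted p under 0.05, with a median of 0.24. The 12 include Adora2a, Drd1, Ppp1r1b, Adcy5, Gng7, Pde10a, Pde1b and Rgs9, which other lists also hold, and Pde4b at 0.29 (SE 0.13), whose medians on the scale of all 60 libraries were alike in the libraries of neither group (41.0) and the striatum-like ones (40.3). The ubiquitous members lay near 0, such as Prkaca and Prkar1b, subunits of protein kinase A, at -0.01 (SE 0.12) and 0.01 (SE 0.13). Drd3, Drd4 and Drd5 were under the filter in these libraries.

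Cortical genes lay near 0. Of 9 genes of excitatory neurons, 2 were higher and 7 lower, with a median of -0.13. Slc17a7, which had defined the cortex-like class, was 121, 178 and 207 in Drd2-high and 169, 191 and 213 in Drd2-low, a difference of -0.13 (SE 0.10). Neurod6, a transcription factor of these neurons, differed by -0.52 (SE 0.20) and was the single member with an unadjusted p under 0.05. Its highest level, 13.3, was in the bottom library.

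The layers did not move together. Upper-layer genes had 4 of 7 higher with a median of 0.04, and deep-layer genes had 7 of 11 higher with a median of 0.08. Lamp5, an upper-layer gene, was at -0.28 (SE 0.10) and Fezf2, a deep-layer transcription factor, at -0.25 (SE 0.09), the members of these lists with an unadjusted p under 0.05, and none was called. Fewer cells of a type and less RNA per cell cannot be told apart in bulk tissue, for the cortical and for the striatal genes.

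**Figure D2:**
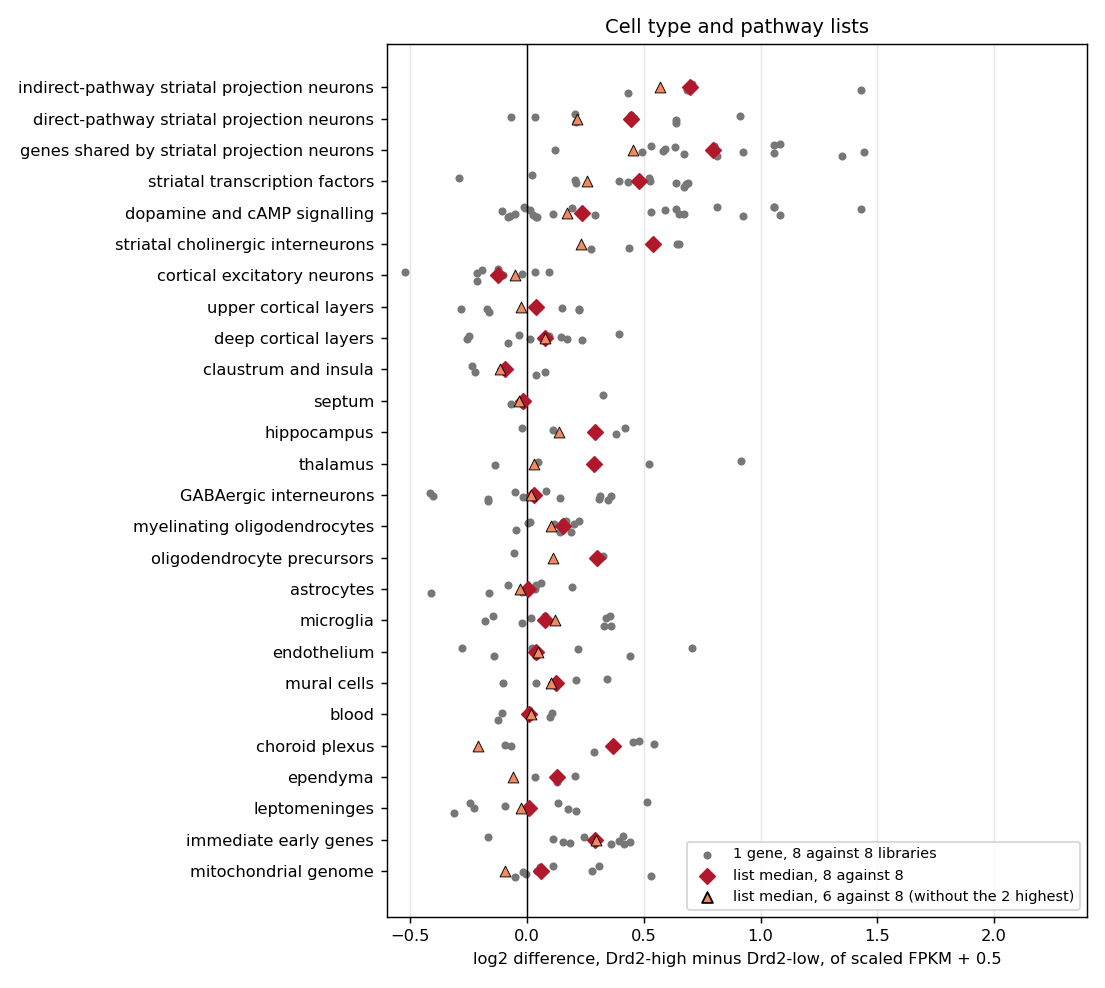
Log2 difference of scaled FPKM + 0.5, Drd2-high minus Drd2-low, for each tested gene of 26 lists (grey points), with the list median over 8 against 8 libraries (diamonds) and without the 2 libraries with the highest Drd2 (triangles). Sex-linked and hypothalamic genes are not drawn. The striatal lists lie to the right of 0, with medians from 0.44 to 0.80, and move towards 0 without the 2 libraries.

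How much of this rested on the ends of the ranking was then measured. Without the 2 libraries with the highest Drd2, the median of the shared striatal genes went from 0.80 to 0.45, with 15 of 16 higher and 11 at an unadjusted p under 0.05. The median of the indirect-pathway genes went from 0.70 to 0.57, with 3 of 3 tested higher. The median of the direct-pathway genes went from 0.44 to 0.22, and that of the transcription factors from 0.48 to 0.26. The cortical excitatory genes went from -0.13 to -0.05.

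Single genes kept their direction at lower size in the remaining 6 against 8 libraries. Pde10a differed by 0.62 (SE 0.12), Lrrc10b by 1.14 (SE 0.24) and Ppp1r1b by 0.39 (SE 0.13). Adcy5 went from 1.08 to 0.54. The libraries ranked 3 to 8 therefore had, on average, higher levels of these genes than the Drd2-low libraries, though only Adora2a was called. Both groups are named here by Drd2 and not by a tissue content.

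The 14 libraries of neither group gave a test in libraries that the groups did not use. In limma, the slope of log2 expression on log2 Drd2 was called for 0 of 15492 genes (0%), 275 had an unadjusted p under 0.05, and 138 of these (0.891%) had a positive slope. Drd2 spans only 0.61 to 1.305 in these libraries. Of the shared striatal genes, 13 of 16 had a positive slope, with a median of 0.33. The indirect-pathway genes had 2 of 3 and the dopamine and cAMP genes 22 of 25, but the direct-pathway genes had 4 of 9 and the striatal transcription factors 4 of 11. The cortical excitatory genes had 8 of 9 positive.

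The relation of the other 2 markers with Drd2 was computed in the same 14 libraries. Adora2a had Pearson's r = 0.36 with Drd2 (permutation p = 0.203, adjusted over 2 markers 0.407) and Spearman's rho = 0.46 (permutation p = 0.0969, adjusted 0.194). Without the 2 libraries farthest from the median Drd2, r was 0.34, and in the 9 labelled cortex it was 0.50. Ppp1r1b had r = 0.016 (permutation p = 0.957) and rho = -0.037 (permutation p = 0.903), with r = 0.065 without 2 libraries and 0.39 in the 9 labelled cortex. The difference between the markers was not tested. The 5 labelled striatum were too few for a value. Over 2 relations, none passed the threshold.

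Over all 30 cortex-like libraries the top library weighed heavily. The r of Adora2a with Drd2 was 0.91 (rho 0.87) and went to 0.78 without the 2 libraries farthest from the median. The r of Ppp1r1b was 0.71 (rho 0.51) and went to 0.39. In limma, the slope on Drd2 was called for 577 genes, of which 528 (3.39% of 15586) were positive. Without the top library it was called for 15 genes, of which 11 (0.0707% of 15562) were positive, and all 15 were among the 577.

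The 11 genes with a positive slope outside the top library were mostly of the striatal lists. They included Adora2a, Adcy5, Syndig1l, Pde10a, Pde1b, Lrrc10b and Gng7, which the lists hold, and Gprin3, Dach1 and Myrf, which no list holds and which are named here because they were called. Myrf is the transcription factor of myelin genes. The 4 genes with a negative slope were Ankrd13d, Gm12696, Nupr1l and Hmg20b.

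A different ranking gene chose partly different libraries. Ranked by Adora2a, 6 of the 8 highest and 7 of the 8 lowest libraries were shared with the Drd2 ranking. Ranked by Ppp1r1b, 5 of the 8 highest and 3 of the 8 lowest were shared. In the library just above the Drd2-low group, striatum Δ12/+ female 1, Ppp1r1b was 133 and Penk 66.7, which was above the Drd2-high medians of 83.5 and 57.6, although its Drd2 was 0.61.

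The striatum-like libraries gave a scale for the size of these values. For each gene, 0% was set at the median of the 14 libraries of neither group and 100% at the median of the 30 striatum-like libraries, with all 60 scaled together. For 421 protein-coding genes at least 4 times higher in striatum-like libraries, the median position was 28.7% in the top library (quartiles 24.9 to 32.3) and 7.5% in the second (5.6 to 9.5). In the libraries ranked 3 to 8 it was between -1.2% and 2.1%, in Drd2-low between -4.2% and 0.1%, and in the libraries of neither group between -1.7% and 3.6%. The libraries ranked 1 and 2 therefore stood above the other 28 on these genes, while ranks 3 to 8 lay within the range of the libraries of neither group.

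Genes that are lower in striatum gave no such separation below the top. For 608 genes at least 4 times lower in striatum-like libraries, the position was 29.7% in the top library (quartiles 23.3 to 36.4) and 9.6% in the second. It spanned -45.7% to 32.2% in the other 28, and cortex +/+ male 2 of neither group reached 32.2% with a position of 2.6% on the genes that are higher in striatum. On the lower genes the top library was thus not distinct from all others.

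**Figure D3:**
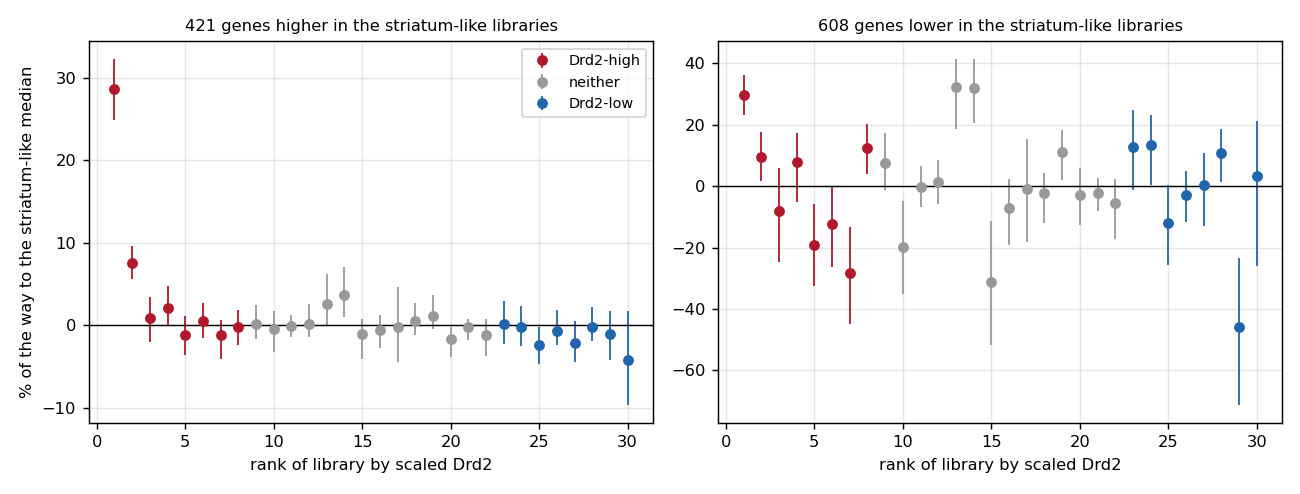
Position of each cortex-like library, in percent of the way from the median of the 14 libraries of neither group to the median of the 30 striatum-like libraries, against its rank by scaled Drd2. Points are medians and bars quartiles over 421 genes that are higher in striatum-like libraries (left, the top library at 28.7% and the second at 7.5%) and over 608 that are lower (right, where libraries of neither group reach 32.2%).

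Striatal genes of different roles lay close to each other on this scale in the top library. Among 30 genes of the 4 striatal neuron lists with a striatum-like median of at least 10 and at least 2 times the median of neither group, the position ranged from 22.3% to 57.2%, with a median of 29.2%. Drd2 itself was at 30.6%, Adora2a at 28.8%, Penk at 33.0%, Drd1 at 30.1%, Tac1 at 27.8% and Ppp1r1b at 32.1%. Foxp1 at 41.3%, Pdyn (prodynorphin) at 42.5% and Sfxn1 at 57.2%, 3 genes chosen after their values were seen, were the farthest from the median. In the second library the 30 genes ranged from 3.0% to 25.8%, with a median of 8.38%, and in the third from -20.8% to 22.9%, with a median of 2.23%.

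**Figure D4:**
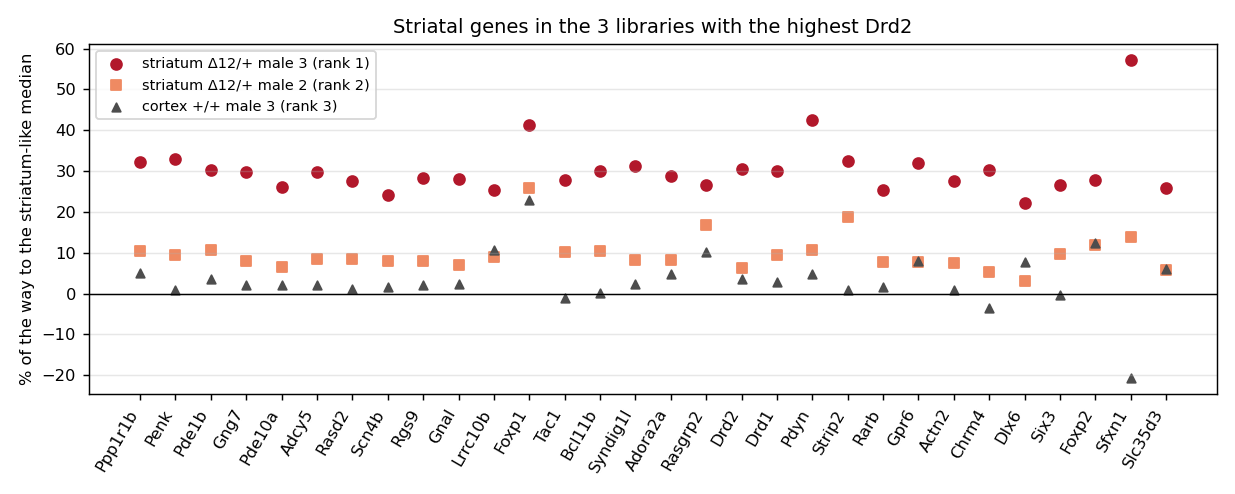
Position of 30 striatal genes, in percent of the way to the striatum-like median, in the 3 libraries with the highest Drd2, ordered by their striatum-like level. The top library (circles) lies between 22.3% and 57.2%, the second (squares) at a median of 8.38% and the third (triangles) at a median of 2.23%.

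By class, most genes that were higher in striatum-like libraries were also higher in Drd2-high. Of 517 tested genes at least 4 times higher in striatum-like libraries than in those of neither group, 92.3% were higher in Drd2-high, with a median difference of 0.32. Without the top library the share was 81.1% of 503 genes tested, and without the 2 highest 72.1% of 495 (median 0.12). Some of the 517 thus passed the filter on low levels only through the libraries with the highest Drd2. The 92.3% is in part set by that filter. Of 2081 genes between 2 and 4 times higher in striatum-like libraries, 80.9% were higher in Drd2-high, and 60.0% without the 2 highest. Of 9278 genes within a factor of 2 between the classes, 50.5% were higher. In the 14 libraries of neither group, 69.4% of the striatum-like genes had a positive slope on Drd2, against 51.1% of the similar genes. These genes were chosen with the same 14 libraries as the reference level, and genes are not independent replicates.

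For genes lower in striatum-like libraries the shares depended on the ends. Of 1006 genes at least 4 times lower, 36.3% were higher in Drd2-high, but 50.1% without the top library and 58.4% without the 2 highest. In the libraries of neither group 32.5% had a positive slope. The lower levels of the 1006 genes in Drd2-high thus rested on the top library, whereas their slopes in the libraries of neither group were also mostly negative. Of 2074 genes between 2 and 4 times lower, 32.1% were higher in Drd2-high, and 45.4% without the 2 highest. On this side the shares did not follow the size of the difference between the classes.

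The gene with the smallest p lay outside the striatal lists. Gm24596 (ENSMUSG00000084453), a small RNA gene at chr7:126563874-126563980 of GRCm38, had the smallest adjusted p, 0.119 in limma, with a difference of -10.15 (SE 1.57). It was above 0 in 8 of 8 Drd2-low libraries, from 223 to 6423, and in 1 of 8 Drd2-high libraries, cortex +/+ male 3, at 3321. Its median was 0 in the libraries of neither group, where the highest value was 6139, and 0 in the striatum-like libraries. Values at 0 in an FPKM table of so short an RNA can be failed estimates, and the difference depends on the pseudocount.

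The remaining genes with groups apart were Dach1, Ankrd13d, Slc37a4 and Pex14. Dach1, a transcription factor that the striatum-like libraries express at a median of 14.2, was 1.61, 1.95 and 5.13 in Drd2-high and 0.66, 1.27 and 1.45 in Drd2-low, a difference of 0.72 (SE 0.18). Ankrd13d was lower by -0.42 (SE 0.09), Slc37a4, a glucose-6-phosphate transporter, by -0.39 and Pex14, a peroxisome import protein, by -0.35. These genes were named after their values were seen.

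Markers of other tissues moved in part with the top library. Ttr, the transthyretin gene of choroid plexus, was 1.55, 40.8 and 425 in Drd2-high and 1.53, 10.1 and 159 in Drd2-low, a difference of 0.45 (SE 1.24). Its 425 was in the top library, and without the 2 highest libraries the difference was -0.66. Of 6 choroid plexus genes tested, 4 were higher, 2 of which (Kl and Clic6) passed the filter only through the Drd2-high libraries, and without the 2 highest 0 of 4. On the scale to the striatum-like median, the top library was at 38.5% for Ttr. The part of choroid plexus in the striatal values was not tested.

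No gene of the other cell classes was called. Medians were 0.03 for GABAergic interneurons (6 of 12 higher), 0.01 for astrocytes (4 of 8) and 0.08 for microglia (6 of 9). At an unadjusted p under 0.05 in limma were 1 higher and 1 lower gene of the interneuron list, 1 lower astrocyte gene and 2 higher microglia genes. Those of the interneuron list were Slc32a1 at 0.36 (SE 0.16) and Npy at -0.40 (SE 0.18). On the scale of all 60 libraries, Slc32a1 had medians of 14.7 in the libraries of neither group and 65.1 in the striatum-like ones. For Npy they were 42.2 and 29.5. The median was 0.15 for myelinating oligodendrocytes (10 of 11, none with an unadjusted p under 0.05). The immediate early genes had 10 of 11 higher with a median of 0.29, and Egr4 alone reached an unadjusted p under 0.05. The oligodendrocyte precursor genes had a median of 0.30 (2 of 3 higher) and the hippocampal genes 0.29 (4 of 5). The thalamic genes had 0.28 (3 of 4, 2 with an unadjusted p under 0.05) and the mitochondrial genes 0.06. Synpo2, among these 2 thalamic genes (means 0.83 and 0.38), passed the filter only through the Drd2-high libraries. So did Prox1 of the hippocampal list (means 0.81 and 0.44), and both had to be higher. Without the top library the medians of these lists were, in the same order, 0.17, 0.24, 0.05 and -0.02. Those of the myelin and immediate early genes were 0.12 and 0.26. These values stand beside the striatal lists as measured, and their part in the result was not tested.

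**Figure D5:**
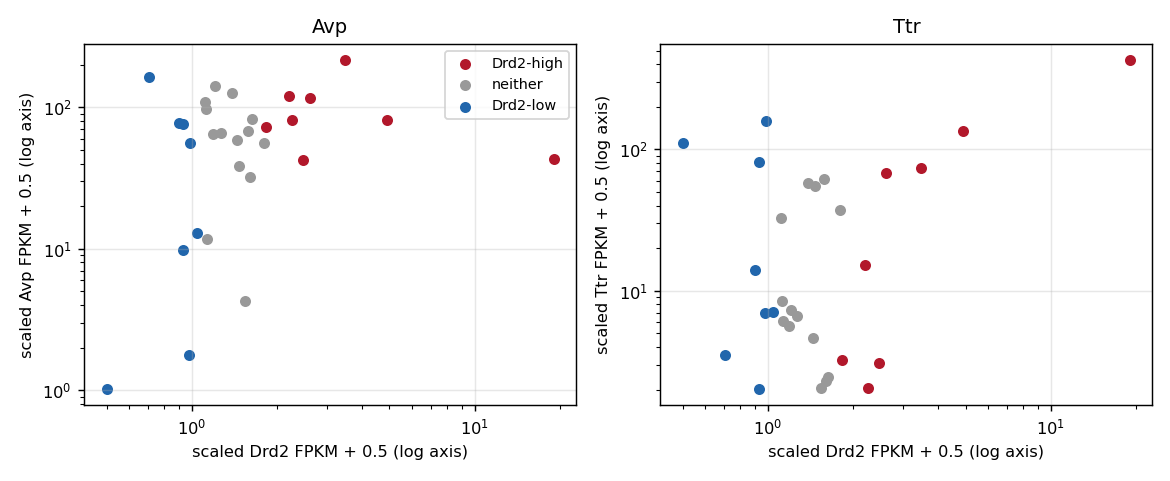
Scaled FPKM + 0.5 of Avp (left) and Ttr (right) against scaled Drd2 + 0.5 in the 30 cortex-like libraries, on log axes, with 1 point per library. Avp is low in several Drd2-low libraries yet 162 in another, and Ttr is 425 in the top library and 110 in the bottom library.

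No quality measure differed between the groups after adjustment. Exact permutation tests over the 16 libraries gave p = 0.975 for depth, 0.416 for the number of entries above 0 and 0.530 for the share of summed FPKM in the 10 highest entries. The scaling factor was lower in Drd2-high by 0.11 on average (exact permutation p = 0.026, adjusted over 4 measures 0.104). On FPKM as deposited the median of all genes shifted to -0.13. Xist was above Ddx3y in 5 Drd2-high and 2 Drd2-low libraries, so sex-linked transcripts were not balanced between the groups (Xist 2.14, SE 1.12), and their part in other genes was not tested.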

How the data were processed

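The authors deposited 1 table per library with the FPKM of 47597 gene entries and the bounds of its interval, on GRCm38. The kit was NEBNext Ultra II Directional with rRNA depletion, on a NovaSeq6000. The submitters' processing notes name bcl2fastq 2.20, Trimmomatic 0.30, TopHat2 2.0.14, SAMtools 1.3, HTSeq 0.6.1p1 and build GRCm38.p4. No counts are in the tables, so library depth is an approximate figure, read from the interval widths of 4102 genes that have 1 transcript. Entries not marked OK in every library (23, Mbp among them) were left out, and 47574 were used. For 50 gene identifiers with several entries, each entry was kept apart.

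Each library's FPKM were divided by its median ratio to the geometric mean of 13500 genes above 0 in all 30 cortex-like libraries (13235 genes for all 60). Genes with a mean scaled FPKM of at least 0.5 were tested on log2(scaled FPKM + 0.5) with limma 3.58.1 in R 4.3.3, with no covariate, and called at a Benjamini-Hochberg adjusted p under 0.05. This scale understates the change of low genes. Single values were compared with permutation tests (100000 resamples, or exact for the quality measures) in scipy 1.17.1. Data were simulated for 8 against 8 libraries and 15450 genes, as independent normal values with equal spread in both groups. Of the 50 genes at each log2 change of 0.5, 1, 2 and 3, the test recovered 32%, 78%, 100% and 94%. There were 8 false calls. Genes with 1 library far above the others of its group, as many striatal genes had, were not simulated. Groups were made by the Drd2 ranking and not by the labels. A library whose title and genotype label name different lines was assigned to the KO line and is striatum-like.

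Members and gene lists were chosen with earlier results of these data known. The rule for named genes took the 3 markers, Slc17a7 and, per list, up to 4 called members or otherwise the 2 most abundant, and up to 10 called genes per direction. Other genes are examples chosen after their values were seen. A result on 1 gene is not reported here, although counts and medians of its lists include it. The replicate numbers were tested as pairs over 15 pairs of cortex and striatum libraries: the correlations of their deviations were -0.16 to 0.11, and 1 was over 0.1. The values thus showed no pairing by these labels. With labels contradicted in part, this cannot exclude that some libraries share a mouse. Alternatives were another scaling, pseudocount, filter, threshold, ranking gene, group size, covariate, weighting and each library left out.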

Additional observations from a re-analysis of the deposited data

Results flagged for a closer look

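Each named gene and quality measure was checked in each group of 8 libraries for a value far from all others, by the gap to the nearest value over the range of the group, with a critical value of 0.526. Of 66 sets of values, 25 stood apart, where chance alone would mark about 5% of sets. These genes were partly chosen for their values, the Drd2 value is the one that made the ranking, and they are not independent of each other. Of the 25, 18 were in the library with the highest Drd2, striatum Δ12/+ male 3, and 4 in the library with the lowest, cortex +/+ female 1.

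In the top library, the ranking gene Drd2 was 18.6 (next 4.40). Of the pathway receptors and peptides, Adora2a was 25.8 (next 9.90), Penk 175 (76.6), Gpr6 10.5 (5.86), Drd1 22.0 (12.7) and Slc35d3 3.61 (1.42). Of the genes shared by striatal neurons, Ppp1r1b was 240 (119), Pde1b 109 (60.2), Rgs9 41.2 (17.2) and Pde10a 63.8 (21.0). Adcy5 was 64.0 (22.1), Gng7 75.9 (27.7), Syndig1l 28.5 (8.85) and Lrrc10b 31.2 (16.5). Dach1 was 5.13 (2.45) and Ttr 425 (134). The cortical genes Slc17a7 at 121 (next 173) and Kcnv1 at 19.9 (25.4) were lowest there.

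In the bottom library, Kcnv1 was 35.8 (next 28.5), Neurod6 13.3 (7.30) and Pex14 28.7 (15.2), and 14925 entries were above 0 (next 19544 in its group). In cortex +/+ male 3, Gm24596 was 3321 while the other Drd2-high libraries were at 0, and Avp was 214 (next 119). Avp was 162 in striatum Δ12/+ female 3 (next 77.0). No cause of these values was tested.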

How the results depend on the processing

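The 8 against 8 comparison called 0 genes, and 36 of 47 alternatives also called 0, with 537 to 2006 genes at an unadjusted p under 0.05. Quantile normalization and the fit on libraries labelled striatum called 1 gene (Gm24596), estimated depth as a covariate 2 (Adora2a and Gm24596) and array weights 3 (both and Lrrc10b). Leaving out single libraries gave 0 to 1 called: Gm24596 without cortex +/+ male 3 and Adora2a without striatum Δ12/+ male 3. A slope over all 30 libraries called 577. Fits added after the data were seen called 1 without both ends, 1 without the 2 highest, 2 with the next library in rank at each end and, for the slope without the highest, 15. Fewer libraries enter some of these fits, and the cause of the other changes was not tested. The slope in the 14 libraries called 0 under all 28 alternatives, with 189 to 629 at an unadjusted p under 0.05. The genotype difference in Drd2 was -0.10 without the top library. Correlations over all 30 libraries were 0.91 for Adora2a and 0.71 for Ppp1r1b.

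With a replicate block for the labelled mouse number, 0 genes were called in both fits (1400 and 298 at an unadjusted p under 0.05), and the label differences in Drd2 kept their sides of the threshold. The block changed no call, but it cannot show what pairing within mice would do.

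Of 1312 values of 28 named genes under alternatives, 1299 kept their direction. With 15 against 15 libraries, Tac1 was -0.0019 and Meis2 -0.007. Meis2 was -0.0568 when ranked by Adora2a, -0.1157 by Ppp1r1b and -0.0744 with the block. Kcnv1 was 0.0483 with the next in rank, 0.0175 ranked by Adora2a and 0.0021 without both ends. Slc17a7 was 0.0198 and Ttr -2.9907 among libraries labelled cortex. Ttr was -0.6647 without the 2 highest and -0.1442 to 0.9559 over libraries left out in turn. Xist was -0.8583 when ranked by Ppp1r1b.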

Other observations

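Neuropeptide genes of the hypothalamus varied widely among the cortex-like libraries and had low medians in the striatum-like ones. Avp (vasopressin) was 42.0, 80.5 and 214 (lowest, median, highest) in Drd2-high and 0.52, 34.1 and 162 in Drd2-low, a difference of 2.21 (SE 0.93, unadjusted p = 0.030 in limma, not called). Oxt (oxytocin) was 1.49, 8.54 and 37.8 against 0, 2.53 and 16.2. Pmch, the melanin-concentrating hormone precursor, was 1.27, 12.4 and 54.7 against 0, 5.56 and 58.1, and Hcrt (orexin) was 0.16, 3.32 and 14.2 against 0, 0.70 and 13.9. Of 7 such genes, 5 were higher in Drd2-high, while in the 14 libraries of neither group 0 of 7 had a positive slope on Drd2. On the scale of all 60 libraries the striatum-like medians were 1.48 for Avp, 0.36 for Oxt and 0.49 for Pmch, and that of Hcrt was 0, although the highest striatum-like values were 53.3 for Avp, 7.30 for Oxt, 58.5 for Pmch and 20.1 for Hcrt.

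Rara, a retinoic acid receptor, had 1 of the smaller p-values outside the striatal lists. It was 0.90, 3.17 and 7.90 in Drd2-high and 0.54, 0.79 and 1.11 in Drd2-low, a difference of 1.38 (SE 0.28, limma adjusted p = 0.355), and 1.49 without the top library. It was named after its value was seen.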
